A study of Homo sapiens with 7 samples.

Results

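The binding of Rb to chromatin was compared between parental and RB1-knockout (RB1 KO) cells of ZR-75-1, a breast cancer cell line that expresses the oestrogen receptor. The members were the peak lists of all samples profiled with an Rb antibody, chosen by their labels, which gave 6 of the 7 samples in the series. The remaining sample was profiled with a non-targeting IgG2a antibody in parental cells with palbociclib. Each peak list came from CUT&RUN, in which a nuclease tethered by an antibody cuts out the DNA near its target, and the DNA so freed is sequenced. Parental cells were given DMSO (n = 2) or 500 nM palbociclib, an inhibitor of CDK4 and CDK6, for 4 days (n = 2). RB1 KO cells, labelled sgRB, were given the same treatments (n = 1 each). The knockout was made by delivering Cas9 protein with a guide against RB1. By the study's methods, edited cells were sorted singly and knockout clones checked by sequencing and western blot were expanded, and a property of the edited clone cannot be told apart from the loss of Rb. How many clones the RB1 KO samples came from is not given in the sources used here. The RB1 KO samples had no replicates within a treatment, and the loss of RB1 cannot be checked from peak lists.

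Rb is the product of RB1 and the best-known member of the pocket protein family, which also includes p107 and p130. Rb has no sequence-specific DNA-binding domain of its own and is brought to promoters mainly by E2F transcription factors, whose targets drive DNA replication and cell division. CDK4 and CDK6, with D-type cyclins, phosphorylate Rb and release it from E2F, and palbociclib blocks that step. In cells without Rb the antibody has no intended target. Satellite DNA, which is made of short units repeated many times, lies around centromeres and is poorly assembled, and the hg38 alignment index also holds unplaced contigs and decoy sequences onto which reads from such repeats map.

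The sequences below are chosen examples from peaks that remained in RB1 KO cells and from those found in parental cells alone. All are from the hg38 forward strand, 5′ to 3′. The first set shows 3 RB1 KO peaks on contigs, with every ATTCC or GGAAT unit in capitals, where a unit of 5 bases recurs in the first and the third and an AT-rich unit without it fills the second.
chr17_KI270729v1_random:992-1092: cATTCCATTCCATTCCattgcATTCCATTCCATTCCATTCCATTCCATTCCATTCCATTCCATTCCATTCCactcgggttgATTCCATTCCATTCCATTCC
chrUn_KI270333v1:1583-1683: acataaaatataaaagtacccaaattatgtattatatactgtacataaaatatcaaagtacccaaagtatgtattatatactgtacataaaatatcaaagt
chrUn_KI270438v1:104847-104947: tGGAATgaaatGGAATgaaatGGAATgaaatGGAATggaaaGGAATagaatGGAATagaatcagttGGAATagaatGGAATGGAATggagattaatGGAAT
The second set shows 2 RB1 KO DMSO peaks on chromosomes, with the longest run of a single base in capitals. The ACSL3 intron window holds a run of 24 C, and the window on chromosome 22 is a tandem array with no longer run than CC.
ACSL3 intron, chr2:222866706-222866806: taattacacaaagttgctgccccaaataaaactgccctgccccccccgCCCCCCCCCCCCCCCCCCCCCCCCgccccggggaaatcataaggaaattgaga
intergenic, chr22:20162849-20162949: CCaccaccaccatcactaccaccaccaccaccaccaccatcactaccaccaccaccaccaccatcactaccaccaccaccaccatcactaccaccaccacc
The third set shows parental peaks without an RB1 KO peak, with E2F motifs and CCAAT or ATTGG in capitals. The first 2 windows are centred on DMSO summits and hold no E2F motif. The E2F1, CDC6 and MCM3 windows were picked by gene and centred on a motif, not on the summit. They are not typical, since only 12.8% of such 201-bp summit windows under DMSO and 5.62% under palbociclib held an E2F motif. The E2F motifs searched were TTTCCCGC, TTTCGCGC, TTTGCCGC and TTTGGCGC on both strands, and the windows that touch a UTR are limited to 30 bases around the motif.
upstream of FLYWCH1, chr16:2905630-2905730: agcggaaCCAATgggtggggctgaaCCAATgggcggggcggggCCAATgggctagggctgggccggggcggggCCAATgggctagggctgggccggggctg
MCM5 promoter, chr22:35399961-35400061: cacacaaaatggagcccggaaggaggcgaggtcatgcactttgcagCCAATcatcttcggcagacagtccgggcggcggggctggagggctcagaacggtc
E2F1 promoter, chr20:33686400-33686429: gccaaatccttTTTGCCGCgaaagagccac
CDC6 promoter, chr17:40287875-40287904: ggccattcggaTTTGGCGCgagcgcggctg
MCM3 promoter, chr6:52284898-52284927: gccccgcggtgGCGGGAAAcgtaccatccg

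Rb peaks on the chromosomes were almost absent from the RB1 KO lists. The parental DMSO lists held 996 and 816 peaks and the parental palbociclib lists 8399 and 8256, against 65 in RB1 KO DMSO and 51 in RB1 KO palbociclib. On chromosomes 1 to 22 and X the parental DMSO lists held 922 and 753 peaks and the parental palbociclib lists 8314 and 8171. The RB1 KO lists held 4 and 5 there. On this log2 scale the parental number of chromosome peaks was higher by a mean of 9.19 over both treatments, which is 586-fold, with 208-fold under DMSO and 1648-fold under palbociclib. Over all sequences the difference was 47.6-fold. Each parental list exceeded each RB1 KO list in both counts. The exact two-sided permutation test, with labels exchanged within treatment, gave p = 0.111 for both counts, which is the smallest value that its 9 arrangements allow. After adjustment over the 6 tests of this comparison the exact permutation p was 0.167, so that the design cannot reach 0.05.

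On contigs and decoys the difference was far smaller. The parental lists held 74, 63, 85 and 85 peaks outside chromosomes 1 to 22 and X, in the order DMSO 1 and 2, palbociclib 1 and 2, and the RB1 KO lists held 61 under DMSO and 46 under palbociclib. The count on decoys was 38, 39, 42 and 41 in the parental lists and 38 and 30 in the RB1 KO lists. On contigs it was 36, 24, 43 and 44 in the parental lists. The RB1 KO lists held 23 and 16 contig peaks, both below every parental list. As a share of each list, peaks outside the chromosomes made up 7.43%, 7.72%, 1.01% and 1.03% in parental cells. They made up 93.8% (95% exact binomial interval 85.0 to 98.3%) in RB1 KO DMSO and 90.2% (78.6 to 96.7%) in RB1 KO palbociclib. These intervals cover counting error only. The mean difference, parental minus RB1 KO, was -87.7 percentage points (exact permutation p = 0.111, adjusted 0.167).

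**Figure D1:**
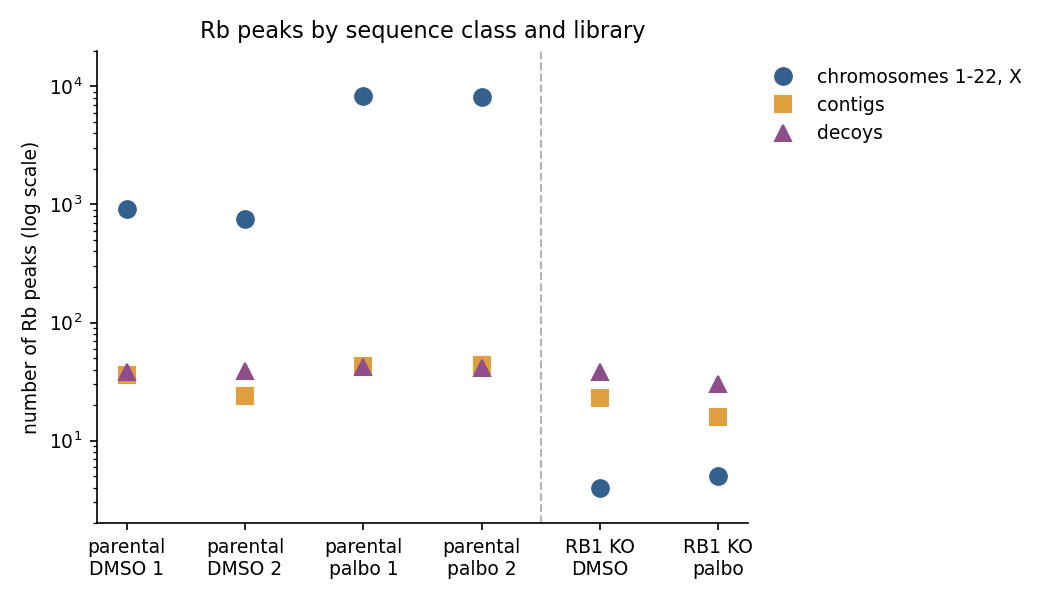
The number of Rb peaks (log scale) in each of the 6 libraries, with circles for chromosomes 1 to 22 and X, squares for unplaced contigs and triangles for decoys; palbo stands for palbociclib and the dashed line parts parental from RB1 KO lists. Circles fall from at least 753 in parental lists to 4 and 5 in RB1 KO lists, while triangles stay between 30 and 42 in all 6. Squares lie at 24 to 44 in parental lists and at 23 and 16 in RB1 KO lists.

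The covered length followed the counts. Peaks on chromosomes covered 301 and 211 kb in the parental DMSO lists and 4397 and 4202 kb in the parental palbociclib lists. They covered 1.47 kb in RB1 KO DMSO and 1.23 kb in RB1 KO palbociclib. Peaks on contigs and decoys covered 35.1, 23.4, 33.1 and 37.3 kb in the parental lists and 26.7 and 22.5 kb in the RB1 KO lists, ranges that overlap.

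Over all sequences the median widths of the RB1 KO peaks lay within the range of the parental lists. The median width was 268 and 236.5 bp in parental DMSO, 457 and 444 bp in parental palbociclib, 356 bp in RB1 KO DMSO and 369 bp in RB1 KO palbociclib. Parental peaks were narrower than RB1 KO peaks under DMSO, by 0.50 on the log2 scale, and wider under palbociclib, by 0.29. The mean of both was a ratio of 0.929 (exact permutation p = 0.667, adjusted 0.667). On chromosomes the parental medians were 264, 233, 459 and 445 bp and the RB1 KO medians 355 bp over 4 peaks and 185 bp over 5, the latter below every parental list, and the mean log2 difference turned to 0.39 (exact permutation p = 0.556). On contigs and decoys the medians were 345, 312, 328 and 341 bp in parental lists and 356 and 386.5 bp in RB1 KO lists, a log2 difference of -0.16 (exact permutation p = 0.111). The direction of the difference in width therefore depended on which peaks were counted.

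The fold enrichment sets the number of fragments at the summit, plus 1, against the local background, plus 1, and its median over each list was lower in RB1 KO cells. The median fold was 5.58 and 5.89 in parental DMSO and 6.90 and 6.86 in parental palbociclib, against 2.10 in RB1 KO DMSO and 1.99 in RB1 KO palbociclib. That is 3.08-fold lower in RB1 KO lists (exact permutation p = 0.111, adjusted 0.167). Within 1 kind of sequence the difference was smaller. On chromosomes the parental medians were 5.73, 6.09, 6.93 and 6.86 and the RB1 KO medians 5.60 over 4 peaks and 5.27 over 5 peaks, a log2 difference of 0.23 (exact permutation p = 0.111). On contigs and decoys the parental medians were 2.25, 2.06, 2.18 and 2.14 and the RB1 KO medians 2.04 and 1.96, a log2 difference of 0.11 (exact permutation p = 0.222). Peaks with a fold of at least 10 numbered 102 and 90 in parental DMSO and 2417 and 2368 in parental palbociclib. There were 0 in either RB1 KO list, whose highest folds were 6.50 and 6.92. With only 4 and 5 RB1 KO peaks on chromosomes, the share of such peaks cannot be compared between genotypes. Outside the chromosomes the parental lists held 0, 0, 2 and 3 of them.

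The pileup and the background at each summit could be recovered as numbers of fragments from the fold and the p-value. The lowest background that the caller assigns anywhere in a library rises with sequencing depth and was compared between lists in place of read totals. This floor was 0.571 and 0.465 fragments in parental DMSO, 0.516 and 0.549 in parental palbociclib and 0.446 in RB1 KO palbociclib. The RB1 KO DMSO list has no peak at its floor, and a floor of 0.580 was estimated from regions shared with the parental lists. The same estimate for RB1 KO palbociclib gave 0.451. The floors of the RB1 KO lists therefore lay at or near the parental range. Over whole lists the median background was 67.7 fragments in RB1 KO DMSO and 181 in RB1 KO palbociclib, against 1.67, 1.14, 1.45 and 1.56 in the parental lists. Within the chromosomes it was 2.70 and 0.4497 in the RB1 KO lists, against 1.47, 1.08, 1.45 and 1.56 in the parental lists. On contigs and decoys it was 97.3 and 219.9 in the RB1 KO lists, against 36.0, 83.5, 28.1 and 22.4.

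**Figure D2:**
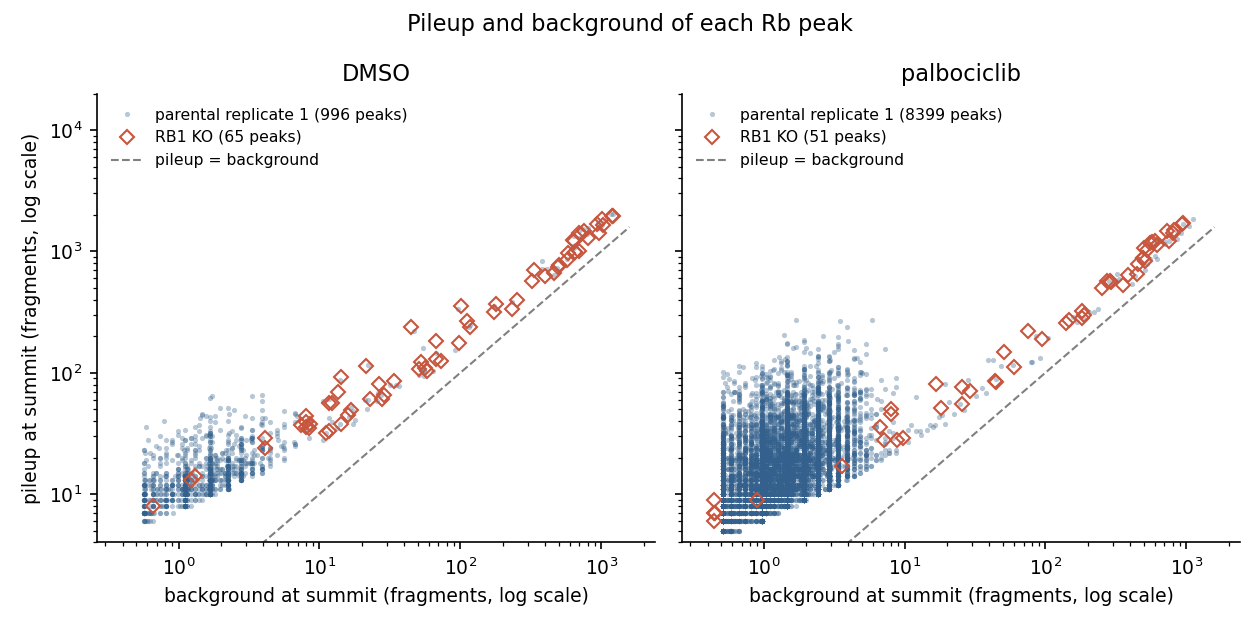
Pileup against background at the summit of each peak, in fragments on log scales, for parental replicate 1 (blue dots) and RB1 KO (open diamonds) under DMSO and palbociclib; the dashed line marks equality. Parental peaks form a dense cloud at backgrounds of a few fragments that RB1 KO lists almost lack, and both genotypes share a narrow band that runs to the highest backgrounds.

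A total of 9 RB1 KO peaks lay on chromosomes, and the peak in an intron of ACSL3, which encodes a long-chain fatty acid activating enzyme, was the only one present in both RB1 KO lists. It lay at chr2:222866294-222866772 in RB1 KO DMSO and had a fold of 2.73 there and of 2.94 in RB1 KO palbociclib, with pileups of 32 and 28 fragments. The parental pileups were 28, 26, 23 and 13 fragments, with folds of 2.504, 6.70, 2.47 and 3.09. The IgG2a list held it at a fold of 15.5, with a pileup of 22 over a background of 0.480. The background there was 11.1 in RB1 KO DMSO and 8.88 in RB1 KO palbociclib, so the IgG2a fold does not compare with the Rb folds. The peak was thus present in every list with and without Rb. Its window is the C run printed above.

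A further pair of RB1 KO chromosome peaks overlapped a parental peak. Upstream of TMEM216, which encodes a protein of the ciliary transition zone, RB1 KO DMSO held chr11:61391312-61391850 with a fold of 6.50 and a pileup of 14. It was called in parental palbociclib replicate 1 (5.71, pileup 13) and in the IgG2a list (6.20, pileup 8), and its summit window holds a run of 30 G. At the promoter of BMPR1A, a receptor for bone morphogenetic proteins, RB1 KO palbociclib held chr10:86756102-86756259 with a fold of 5.27 and a pileup of 9. Both parental palbociclib replicates called this site, with folds of 4.06 and 6.20 and pileups of 7 and 13, and the IgG2a list did not. The window had 76.1% GC and 29 CpG, the highest of the 9 on both counts.

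The other 5 had no counterpart in any parental list. RB1 KO DMSO held chr1:121574416-121574640 within the non-coding genes EMBP1 and LINC01691, with a fold of 6.29 and a pileup of 13, and the array on chr22:20162715-20162945, with 4.91 and 24. RB1 KO palbociclib held chr21:36052860-36053061 in an exon of SETD4 (4.84, pileup 6), chr3:71236643-71236827 in an intron of FOXP1 (5.53, pileup 7) and chr9:1533974-1534126, 446241 bp from the start of SMARCA2, the nearest coding gene (5.52, pileup 7). The 3 palbociclib peaks rested on 6 or 7 fragments each. None of these 5 was in the other RB1 KO list or in the IgG2a list. No E2F motif was found in the 201-bp summit windows of the 9 peaks.

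On contigs and decoys the RB1 KO peaks were concentrated and shared. Of 107 such peaks, added over both lists, 44 lay on the decoy KN707896v1 and 10 on the contig KI270438v1, together 50.5%. A region called in both lists entered once per list, and joining overlapping peaks left 41 decoy and 26 contig regions. Folds on KN707896v1 ran from 1.44 to 2.14 only, and the decoy held 20, 24, 23 and 20 peaks in the parental lists against 23 and 21 in the RB1 KO lists. KI270438v1 held 5, 5, 5 and 4 in the parental lists and 5 in each RB1 KO list. The 5 RB1 KO regions of highest fold outside the chromosomes were KI270730v1 (6.92), JTFH01001973v1 (6.20), KI270336v1 (5.89), KI270718v1 (5.44) and KI270333v1 (5.23). The decoy JTFH01001973v1 had folds of 5.96, 6.88, 4.88 and 4.35 in the parental lists, around the RB1 KO values of 6.20 and 5.67. KI270718v1, at a pileup of 8, was called in RB1 KO DMSO alone.

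Most RB1 KO peaks were also parental peaks. In RB1 KO DMSO 58 of 65 (89.2%, 95% exact binomial interval 79.1 to 95.6%) overlapped a peak of at least 1 parental list by 1 bp or more, and 38 overlapped a peak in all 4. In RB1 KO palbociclib the counts were 45 of 51 (88.2%, 76.1 to 95.6%) and 35. The RB1 KO lists shared 41 peaks with each other, 63.1% of the DMSO list and 80.4% of the palbociclib list. The IgG2a list overlapped 60 of the 65 and 45 of the 51.

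A set of 31 regions was called in all 6 Rb lists. Of these, 22 lay on decoys, 8 on contigs and 1, the ACSL3 intron, on a chromosome, and 16 were on KN707896v1. The median fold over the 31 was 1.92 and 1.86 in parental DMSO, 1.78 and 1.77 in parental palbociclib, 1.84 in RB1 KO DMSO and 1.904 in RB1 KO palbociclib. The RB1 KO values lay within the parental range. The mean log2 difference, parental minus RB1 KO, was -0.03 (exact permutation p = 0.667, adjusted 0.667). A region had to be called in all 6 lists to enter, so sites that lost their peak in RB1 KO were left out beforehand. Similar medians are partly built in by that choice. The median pileups were 828, 606, 648 and 695 in parental lists and 772 and 639 in RB1 KO lists. The RB1 KO DMSO summit lay a median of 5 bp from the parental summits, and within 50 bp at 30 of the 31. All 31 overlapped a peak of the IgG2a list.

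**Figure D3:**
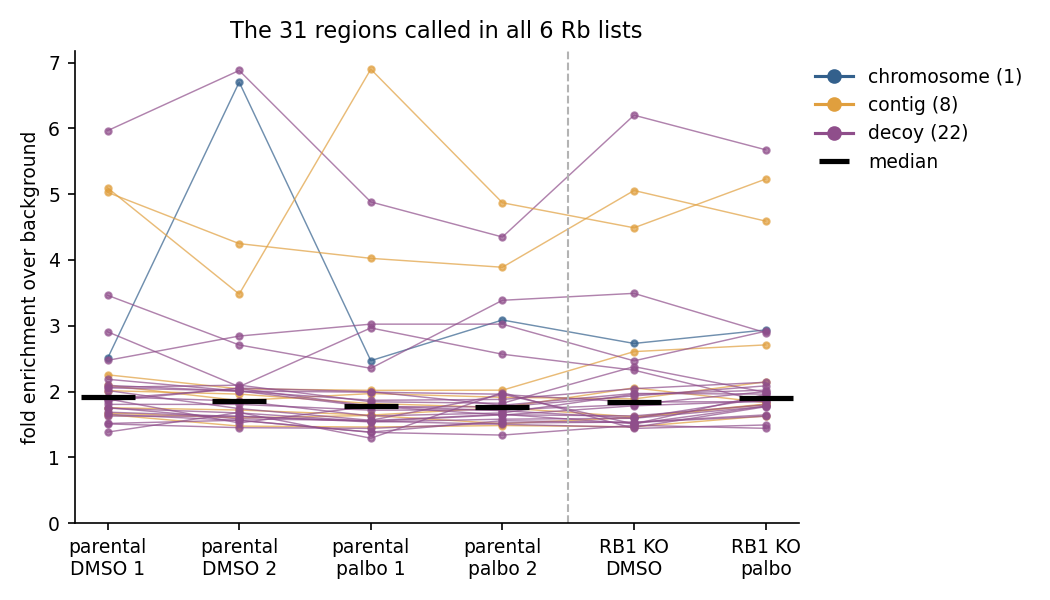
Fold enrichment at the 31 regions called in all 6 Rb lists, with 1 line a region coloured by kind of sequence and black bars at the median of each library. Medians lie between 1.77 and 1.92 in the 6 libraries, on both sides of the dashed line that parts parental from RB1 KO.

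The contig peaks of the RB1 KO lists fell into 2 kinds of repeat. The 39 RB1 KO contig windows, of 201 bp at the summits, were taken from both lists. A region called in both therefore entered once per list. Of the 39, 28 held at least 8 copies of ATTCC or GGAAT, the unit of human satellites 2 and 3. Another 10 matched themselves best at a shift of 42 bases, with 57.2 to 95.0% of bases identical, and had a GC content of 21.9 to 25.9%. These AT-rich windows came from KI270333v1, KI270336v1, KI270337v1 and KI270467v1, and their folds ran from 2.68 to 5.89, against 1.46 to 6.92 for the ATTCC windows. The remaining window was KI270718v1. In the parental lists at least 8 copies were present in 63.9% and 66.7% of contig windows under DMSO and in 48.8% and 45.5% under palbociclib, against 65.2% and 81.2% in the RB1 KO lists. Decoy sequences were not analysed here.

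Parental chromosome peaks had a different base composition. The median GC content of their summit windows was 68.2% and 68.7% under DMSO and 70.1% in both palbociclib lists, with 19 to 21 CpG a window at the median. RB1 KO chromosome windows had medians of 58.5% over 4 and 48.3% over 5, with 4 and 3 CpG. The contig windows of all 6 lists had medians from 37.8 to 45.8%.

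**Figure D4:**
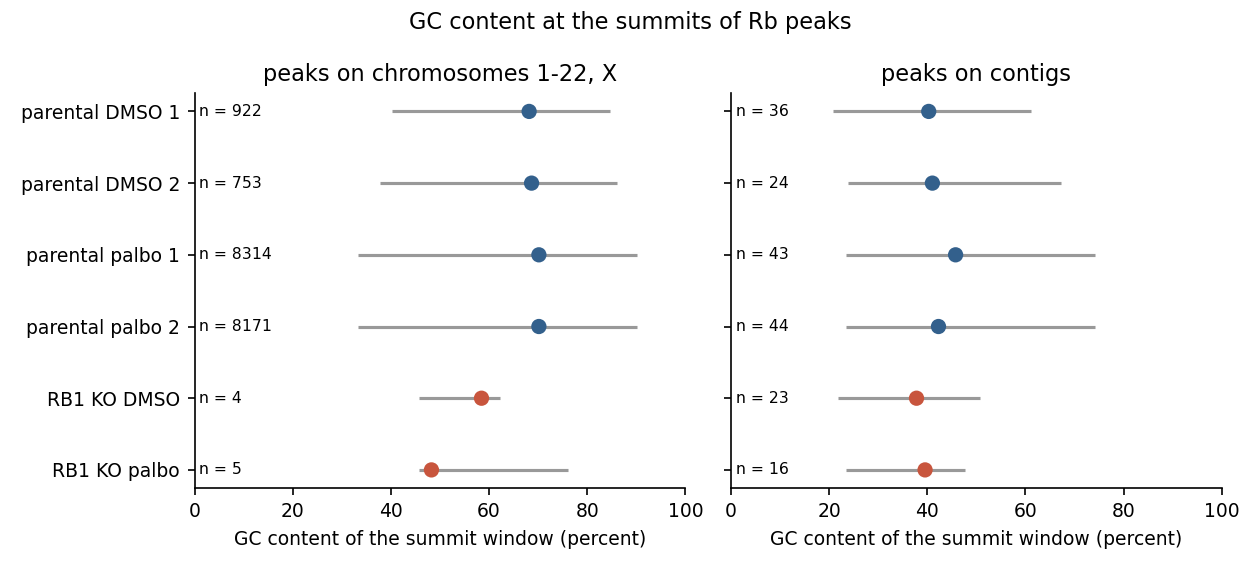
GC content of the 201-bp windows at peak summits, in percent, with dots at the median and lines from the lowest to the highest window of each library; blue is parental, red is RB1 KO, and n gives the windows. On chromosomes the parental medians lie near 70% and the RB1 KO medians at 58.5% and 48.3%, while on contigs all medians lie between 37.8 and 45.8%.

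The parental sites were next divided by whether RB1 KO cells held a peak there. Regions called in both parental replicates numbered 515 under DMSO, of which 468 were on chromosomes, and 6695 under palbociclib, of which 6644 were on chromosomes. On chromosomes 467 of the 468 DMSO regions had no peak in RB1 KO DMSO, and 6642 of the 6644 palbociclib regions had none in RB1 KO palbociclib. The exceptions were the ACSL3 intron in both treatments and the BMPR1A promoter under palbociclib. The share called in RB1 KO was 0.214% (95% exact binomial interval 0.00541 to 1.18%) and 0.0301% (0.00365 to 0.109%). Outside the chromosomes 42 of 47 DMSO regions (89.4%, 76.9 to 96.5%) and 34 of 51 palbociclib regions (66.7%, 52.1 to 79.2%) were called in the RB1 KO list of the same treatment.

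Few regions were called in RB1 KO cells at any strength. Among DMSO regions on chromosomes with a mean fold under 5, 1 of 55 was called in RB1 KO DMSO. With a mean fold of 5 to 10, 0 of 326 were called, and 0 of 84 with a fold of 10 to 20. Among palbociclib regions 1 of 925 with a fold under 5, 1 of 3378 with a fold of 5 to 10, 0 of 1771 with a fold of 10 to 20 and 0 of 570 with a fold of at least 20 were called in RB1 KO palbociclib. The RB1 KO lists started at smaller p-values, since their smallest −log10 p was 7.06 under DMSO and 6.33 under palbociclib, against 5.23, 5.33, 4.15 and 4.15 in the parental lists. With that limit applied to both parental replicates, 384 DMSO and 5759 palbociclib regions on chromosomes remained, of which 0 and 1 were called in the RB1 KO list.

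Absence of a call sets only an upper limit on the RB1 KO pileup. At each site the parental background was scaled by the floors and the smallest pileup that reaches the RB1 KO list's own smallest −log10 p was taken as the limit. For the 467 DMSO sites the median limit was 11 fragments, against a median of 18.6 fragments expected from the parental pileup at RB1 KO depth. For the 6642 palbociclib sites these were 10 and 16.4. The parental pileup exceeded the highest uncalled RB1 KO pileup at 465 (99.6%) and 6172 (92.9%) sites, by more than 2-fold at 154 (33.0%) and 2932 (44.1%), and by more than 5-fold at 3 and 492. At the other sites a peak of unchanged height could have gone uncalled. At the median site the RB1 KO pileup was at least 1.66-fold lower under DMSO and 1.82-fold lower under palbociclib, and a smaller residual signal was not detectable at this depth.

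Of the sites without a peak in either RB1 KO list, 435 of 467 under DMSO (93.1%) and 5933 of 6642 under palbociclib (89.3%) lay at promoters, taken as 2000 bp before to 500 bp after the start of a protein-coding transcript. Intergenic sites numbered 22 and 402, introns 7 and 130, exons 2 and 105, 3′ UTRs 1 and 56 and 5′ UTRs 0 and 16. These classes used protein-coding genes only, so an intergenic site may lie at a non-coding gene. With starts of all genes, 98.1% of DMSO and 95.4% of palbociclib consensus regions on chromosomes lay at promoters. The IgG2a list overlapped 6 of the 468 DMSO regions (1.28%) and 89 of the 6644 palbociclib regions (1.34%) on chromosomes, and 58 of 61 RB1 KO DMSO and 44 of 46 RB1 KO palbociclib peaks outside them.

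The strongest sites without an RB1 KO peak were led by the same site in both treatments, which lay outside protein-coding genes and their promoters. At chr16:2904274-2906124, with its summit 6353 bp upstream of the start of FLYWCH1, the parental palbociclib folds were 101.9 and 100.03, with pileups of 274 and 264 fragments. The parental DMSO folds there were 23.9 and 24.0, with pileups of 64 and 57. No RB1 KO list called it, at a limit of 10 fragments under palbociclib and 12 under DMSO, so the RB1 KO pileup was at least 25.1-fold and 6.19-fold lower than the parental mean at equal depth. Its printed window holds 4 CCAAT. A second site outside protein-coding genes, chr12:8242477-8244069 near FAM90A1, had palbociclib folds of 85.3 and 81.1 (at least 18.9-fold lower). Its DMSO folds were 17.6 and 17.1 (at least 4.19-fold lower). Non-coding genes at these sites are not given here.

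Replication genes held 3 of the other 8 DMSO sites. MCM5, a subunit of the replicative helicase, had DMSO folds of 19.0 and 27.5 and pileups of 46 and 58 at chr22:35399928-35400172 (at least 5.96-fold lower). CDC6, which loads that helicase at origins, had 22.9 and 23.1, with pileups of 40 and 37 (at least 5.43-fold lower). The promoter shared by MCM7, another helicase subunit, and AP4M1 had 14.2 and 18.7 (at least 4.11-fold lower). Outside replication, NEMP1, a nuclear envelope protein, had 17.1 and 21.0, and FANCG, a Fanconi anaemia protein of DNA crosslink repair, had 23.6 and 14.3. The promoter shared by CCNE2, which encodes cyclin E2, and NDUFAF6 had 23.3 and 14.1. FAM111B had 17.8 and 14.95 and SIVA1 16.1 and 16.1. At these 10 sites the bounds ran from 3.94-fold at SIVA1 to 6.19-fold upstream of FLYWCH1.

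Under palbociclib the next strongest were CDC6 with folds of 66.1 and 75.8 (at least 17.0-fold lower), ASF1B, a histone chaperone, with 67.3 and 71.0 (at least 14.7-fold), and the promoter between DGLUCY and RPS6KA5 with 70.1 and 65.4 (at least 15.5-fold). FAM111B had 68.5 and 63.3 and RAB33B, a small GTPase, 61.3 and 67.8. The promoter between TCF19 and CCHCR1 had 63.4 and 62.3, PRXL2B 64.1 and 60.7 and SGCE, a sarcoglycan, 51.1 and 73.4. The bounds of these 8 ran from 13.6-fold at TCF19 to 17.0-fold at CDC6. Both replicates stood far above the RB1 KO limit at all 10 sites, which follows from choosing the sites of highest fold. None of the 20 was in the IgG2a list.

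**Figure D5:**
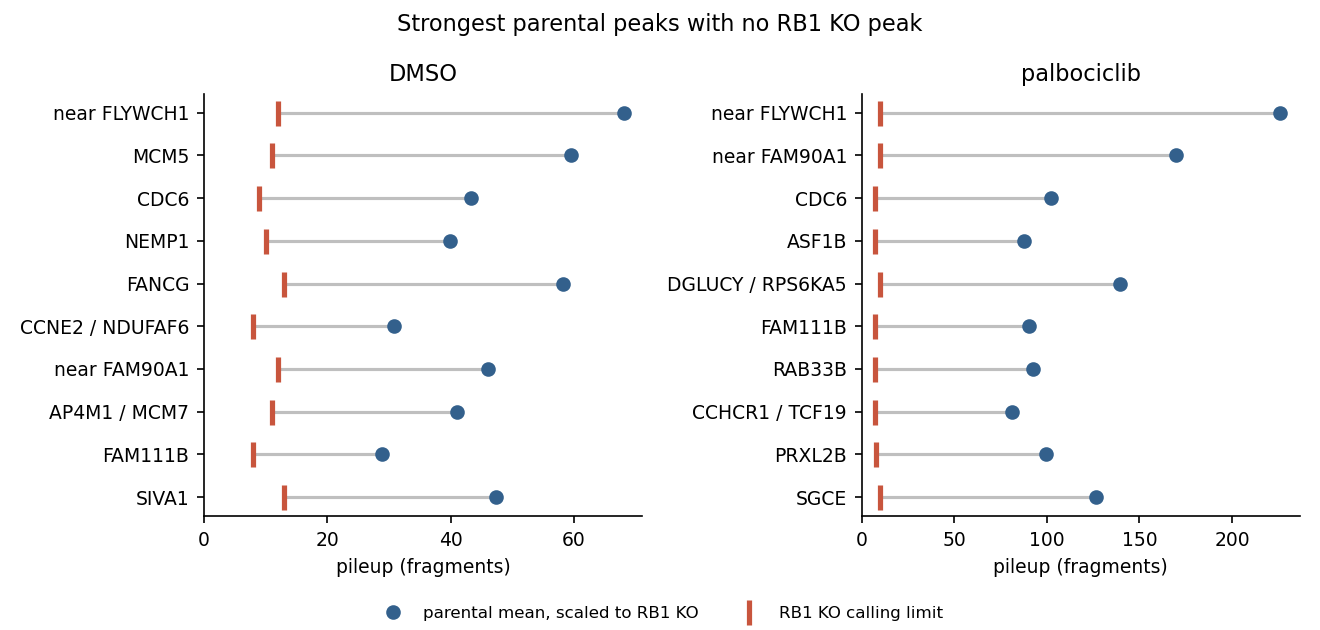
Pileup in fragments at the 10 parental regions of highest mean fold with no RB1 KO peak, for DMSO and palbociclib; dots give the mean of both parental replicates scaled to the depth of the RB1 KO library and red ticks the smallest pileup at which RB1 KO would have been called. Each dot lies right of its tick, from 28.9 against 8 at FAM111B under DMSO to 226 against 10 upstream of FLYWCH1 under palbociclib.

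By gene, promoter peaks in both parental DMSO replicates were present at 540 of 19626 protein-coding genes (2.75%) and in both palbociclib replicates at 6667 (34.0%). RB1 KO DMSO had a peak at the promoter of 1 gene, TMEM216 (0.00510%), and RB1 KO palbociclib at 1, BMPR1A (0.00510%). Of 176 genes in 6 lists, 29 had a promoter peak in parental DMSO and 114 in parental palbociclib, and 0 had one in either RB1 KO list. DNA replication and nucleotide synthesis accounted for 17 of 44 under DMSO (38.6%) and 44 of 44 under palbociclib. The Rb pathway and pocket proteins gave 5 of 32 and 26 of 32, mitosis 2 of 30 and 21 of 30, and DNA repair 5 of 20 and 18 of 20. Oestrogen response and luminal genes gave 0 of 25 and 5 of 25, the 5 being MYB, FOXA1, TFAP2C, AREG and SLC39A6, below the 34.0% of all genes. Genes of other tissues gave 0 of 25 in both. Given as bounds, 110 of the 114 genes exceeded the highest uncalled RB1 KO pileup under palbociclib, 81 by more than 2-fold and 28 by more than 5-fold, and under DMSO 29 of 29, 15 and 2.

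Among the E2F and pocket protein genes, E2F1, an activating E2F, had DMSO folds of 13.7 and 17.2 and palbociclib folds of 57.7 and 52.4, with palbociclib pileups of 113 and 106 fragments against an RB1 KO limit of 8 (at least 13.1-fold lower). RBL1, which encodes p107, had 15.4 and 13.8 under DMSO and 39.95 and 46.0 under palbociclib (at least 9.94-fold lower). E2F3 was called under palbociclib alone, at 15.8 and 14.2 (at least 3.08-fold). E2F2 and RB1 itself were close to the limit, with palbociclib folds of 4.77 and 7.80 and of 5.13 and 6.30 and bounds of 1.48-fold and 1.47-fold. The RB1 promoter peak lay at chr13:48303330-48304284 and was not called in parental DMSO. MYBL2, a cell cycle transcription factor, had 7.83 and 8.798 (at least 1.89-fold).

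Of the cyclins, CCNE2, at the promoter shared with NDUFAF6, had palbociclib folds of 51.8 and 57.0 (at least 12.6-fold lower). CCNE1, which encodes cyclin E1, had 25.4 and 30.0 under palbociclib (at least 6.09-fold) and was called in 1 of the 2 DMSO replicates, at 6.09. CCNA2, cyclin A2, and its partner CDK1 were called under palbociclib alone, with folds of 6.72 and 10.0 and of 9.14 and 7.80, and their bounds were 1.76-fold and 1.88-fold. CCND1, which encodes cyclin D1, was called in palbociclib replicate 1 only, at 3.42. Under palbociclib the cyclin E genes had larger bounds than CCNA2 and CDK1. A bound is set by the parental pileup and the calling limit, so this order is of parental peaks and does not rank the loss in RB1 KO cells.

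The replication and nucleotide genes were clear of the limit in most cases. MCM3 had 10.9 and 7.36 under DMSO and 46.1 and 24.6 under palbociclib (at least 7.86-fold lower), and PCNA, the sliding clamp, 8.99 and 7.82 and then 39.5 and 37.5 (at least 8.90-fold). RRM2, a ribonucleotide reductase subunit, had 7.85 and 9.75 and then 13.2 and 15.2 (at least 2.99-fold). TYMS, thymidylate synthase, had 4.81 and 4.87 and then 16.3 and 12.1 (at least 3.83-fold), and the IgG2a list also held a peak there, at 4.85 with a pileup of 8. TFF1, GREB1 and KRT18, of the oestrogen response and luminal list, had no promoter peak in any of the 6 lists. Distal peaks were not assigned to genes here, and the study reports Rb at distal enhancers of oestrogen response genes as well. The promoter counts therefore do not show whether Rb was absent from these genes.

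E2F motifs were looked for in the windows of sites without an RB1 KO peak. At least 1 of the 4 motifs was in 60 of 467 windows under DMSO (12.8%) and in 373 of 6642 under palbociclib (5.62%). It was in 798 of 35116 RefSeq promoters (2.272%), taken as the 201 bases up to the start. The RefSeq windows had a median GC content of 58.7%, against 68.7% and 70.6% for the DMSO and palbociclib windows. They were not matched for base composition or position. By mean fold under DMSO the share with an E2F motif was 5.56% below 5, 11.04% from 5 to 10 and 23.8% from 10 to 20. Under palbociclib it was 2.81%, 4.59% and 7.06% in the same bins and 11.8% at 20 or above. Of the chromosome windows of the IgG2a list, 0.406% held one. Contig windows of the RB1 KO lists held none in 39. Those of the parental lists held one in 0 of 36 and 0 of 24 under DMSO and in 1 of 43 and 0 of 44 under palbociclib. These shares describe the letters present and were not tested.

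Some contig and decoy regions called in parental cells had no peak in RB1 KO cells. Of regions called in both parental replicates outside the chromosomes, 4 under DMSO and 11 under palbociclib had no peak in either RB1 KO list. Of these, 1 of the 4 and 4 of the 11 overlapped a peak of the IgG2a list. With the calling limit set as for the chromosome sites, the parental pileup exceeded the highest uncalled RB1 KO pileup at 4 of 4, by 1.27 to 1.64-fold, and at 8 of 11, by up to 4.59-fold. The other 3 palbociclib regions, on KI270736v1, GL000226v1 and KN707951v1, could have gone uncalled at an unchanged height. The contig GL000195v1 held 3 of the 11, at positions 32379, 86399 and 137930, with palbociclib folds of 9.47 and 9.40, of 13.4 and 12.6, and of 19.97 and 14.2, and with bounds of 2.45-fold, 3.52-fold and 4.59-fold. None of the 3 was in the IgG2a list. Its region at 137957 was also the DMSO one, at 5.31 and 5.29. GL000205v2, a contig assigned to chromosome 17, had 9.73 and 11.02 under palbociclib, at least 2.67-fold lower in RB1 KO. Among the 4 that overlapped IgG2a peaks, KI270722v1 had folds of 9.36 and 7.24 and KI270736v1 of 2.37 and 2.05. The 9 windows on contigs had a median GC content of 59.7% and 1 of them held at least 8 copies of ATTCC or GGAAT, against 38.8% and 9 of 12 for the contig regions that kept a peak.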

How the data were processed

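Peak lists of 6 Rb samples and 1 IgG2a sample were used. Sample titles gave the groups and replicate numbers. By the study's methods and the submitters' processing notes, the authors aligned trimmed paired reads with Bowtie2 2.3.4.1 (build hg38), left out mitochondrial reads and those in blacklisted regions, kept duplicates, and called peaks for each library separately with MACS2 2.2.7.1 against an IgG control at q under 0.05. Which IgG library served which sample is not given in the sources used here. The control of the IgG2a list itself is also not given, so its folds may not share the scale of the Rb folds. Peak names show that reads aligning to yeast had been removed. The deposited column of fold enrichment is a linear ratio, and the deposited −log10 p and −log10 q come from the caller. The deposited score and the strand column were not used. Total read numbers were not analysed here, so depth was compared only through the background floor. A smaller share of cells with bound Rb and less bound Rb in each cell cannot be told apart in bulk libraries.

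From these files the pileup (whole fragments) and background were recovered from fold = (pileup + 1)/(background + 1) and the Poisson upper tail, with a misfit of at most 0.00151 in −log10 p, and the functions were tested on simulated data. Peaks overlapped when they shared 1 bp. Consensus regions joined overlapping peaks called in both replicates. Promoters were 2000 bp upstream to 500 bp downstream of protein-coding starts of GENCODE 44 on hg38. The 6 tests were exact two-sided permutation tests of parental minus RB1 KO, within treatment, with Benjamini-Hochberg adjustment. The study's methods call the 2 parental samples of a treatment biological replicates. The p-values give the rank of the observed labels among the possible arrangements of these samples and do not measure the spread between replicates. Calling limits take the smallest −log10 p of the RB1 KO list as its cutoff. The true cutoff may be lower, and a minimum peak length can leave a site uncalled above the limit.

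Genes and peaks were named by a rule: every RB1 KO peak on a chromosome, the 5 RB1 KO regions of highest fold elsewhere with the sequences that hold most RB1 KO peaks, the 10 parental regions of highest fold in each treatment without an RB1 KO peak, parental regions with an RB1 KO peak, and 20 genes from 6 lists, which are otherwise given as counts. The values of 1 of these genes are not reported here. Windows, motifs and contig regions without an RB1 KO peak were added after values were seen. The lists and members were chosen with earlier results of these data known. Python 3 with scipy and pandas was used. Promoter sequences were from RefSeq and peak sequences from hg38.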

Additional observations from a re-analysis of the deposited data

Results flagged for a closer look

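Palbociclib went with more Rb peaks in parental cells and, over all sequences, with fewer in RB1 KO cells. It was 9.24-fold higher under palbociclib than under DMSO in parental cells, as the ratio of geometric means of 2 libraries each, and 0.785-fold in RB1 KO cells, with 1 library each (51 against 65). Both parental palbociclib lists exceeded both parental DMSO lists. In RB1 KO cells the fall lay outside the chromosomes, from 61 to 46 peaks, while chromosome peaks numbered 4 under DMSO and 5 under palbociclib. The background floor, the lowest background of a list, was 0.446 in RB1 KO palbociclib and an estimated 0.580 in RB1 KO DMSO, and its part in the result was not tested. The difference between the genotypes was not tested, since each RB1 KO treatment has 1 library. Groups of 2 or fewer samples were too small to look for samples that stand apart.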

How the results depend on the processing

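No paired analysis was possible because the RB1 KO groups have 1 sample each and share fewer than 2 replicate numbers with one another. Of 70 alternatives over 13 results, 59 kept their direction or stayed within the counting interval. For the permutation tests only the direction could change, since the arrangements allow no p under 0.05 in any setting. Median peak width turned from -0.11 to 0.0672 (log2) with the common −log10 p cutoff of 7.06, to 0.12 with −log10 q of at least 5 and to 0.39 on chromosomes alone, an alternative chosen after seeing the data; it gives no stable direction. With −log10 q of at least 5 RB1 KO palbociclib held no chromosome peak and the log2 ratio of chromosome peaks could not be computed. Leaving out each parental library in turn gave log2 differences of 5.501 to 5.64 in peak number, 9.12 to 9.27 on chromosomes, -0.15 to -0.06 in width, 1.60 to 1.64 in median fold and -0.03 to -0.02 at shared regions, and -87.8 to -87.7 points outside chromosomes; each test then allows no p under 0.167 (exact permutation, 6 arrangements). The share of parental consensus peaks called in RB1 KO was 8.35% under DMSO and 0.538% under palbociclib over all sequences, and 0.214% and 0.0301% on chromosomes only; single replicate lists gave 5.02 to 6.25% and 0.488 to 0.497%. The share of RB1 KO peaks in a parental list was 88.8%, 62.9% when all 4 lists were required, and 86.2 to 88.8% without 1 list. Starts of all genes in place of coding ones raised the promoter share from 92.9 to 98.1% under DMSO and from 89.3 to 95.4% under palbociclib. With the RB1 KO floor as background the share of sites above the limit rose from 99.6 to 100% and from 92.9 to 99.95%. With 1 RB1 KO library a treatment, variation between RB1 KO samples was not measured.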

Other observations

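Pairs of the parental contig regions without an RB1 KO peak shared sequence. The 201-bp windows of GL000205v2 at 140326 and GL000195v1 at 86399 shared a stretch of 63 identical bases, and those of GL000205v2 and GL000195v1 at 137930 shared 56 on opposite strands, so their reads may not be separable by position. CCAAT or ATTGG, the box bound by NF-Y, was looked for after the windows had been seen. It occurred at least 2 times in 16.7% of windows without an RB1 KO peak under DMSO and in 9.003% under palbociclib, against 7.89% of RefSeq promoters, which were not matched for base composition or position. By mean fold under palbociclib the share was 3.90% below 5, 6.60% from 5 to 10, 12.8% from 10 to 20 and 19.8% at 20 or above.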
